A study of Mus musculus with 9 samples.

Results

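Structural RNAs are abundant non-coding RNAs that work as the scaffold or the catalytic core of a protein complex. In the brain RNA table, 7 of 38621 rows were taken as this set by name: Rn7s1, Rn7s2, AC099934.2 and AC157822.2 for 7SL RNA, Rn7sk for 7SK RNA, Rpph1 for the RNA of RNase P, and Rmrp for the RNA of RNase MRP. They were picked because their share of the reads differed between the groups in these same 9 samples. Their differences between the groups are therefore described without a test. All 7 rows passed the filter on low values used for the tests of other genes.

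Total RNA of brain from male C57BL/6 mice was sequenced in 9 mice, 3 for each of 3 groups named sham, ICH and feb. ICH, intracerebral hemorrhage, was modeled by an injection of autologous blood into the brain tissue. The sham mice received saline by the same route in the study's methods, whereas the labels call them untreated. The feb mice took febuxostat, a xanthine oxidase inhibitor used against gout, by gavage daily before the blood was injected. All mice were anesthetized with chloral hydrate for the injection, and the sources used here name neither the dissected region nor the time after injection for these samples. Between 23065757 and 29538009 reads per mouse fell on the rows of the table. The library kit removed rRNA and kept strand, and its products were selected by size, so short transcripts enter only in part. Each mouse is 1 library. Fewer cells of a type and less RNA per cell cannot be told apart in such bulk RNA.

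7SL is the RNA of the signal recognition particle (SRP), which binds ribosomes that make secreted or membrane proteins and docks them on the Sec61 channel of the endoplasmic reticulum. 7SK holds the elongation factor P-TEFb, a pair of Cdk9 and a T-type cyclin, in an inactive particle with Hexim proteins, Larp7 and Mepce, and its release lets RNA polymerase II leave promoters. RNase P removes the 5′ leader of precursor tRNAs, and the related RNase MRP cuts precursor rRNA. The 4 kinds of RNA are made by RNA polymerase III from promoters with elements upstream of the gene.

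The rows of 7SL could not be told apart by sequence. Rn7s1 (chr12:69159295-69159594, plus strand) and Rn7s2 (chr12:69361182-69361481, minus strand; GRCm38) were identical in 300 of 300 bases. AC099934.2 (chr12:69159437-69159506) and AC157822.2 (chr12:69361270-69361339), which GENCODE release M21 types as miRNA genes, are the same 70 bases and cover bases 143 to 212 of Rn7s1 and of Rn7s2.

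Rn7sk (chr9:78175303-78175633, minus strand, 331 bases) shared its first 241 bases with the row Gm24447 (chr15:93234363-93234700, plus strand, 338 bases), which GENCODE types as misc_RNA. Their ends are printed because Gm24447 held more reads than Rn7sk in some mice and a read in the identical part fits either. Each sequence starts with the last 30 bases of that part, at base 212, and the capitals mark the 90 bases of Rn7sk and the 97 bases of Gm24447 that follow it.

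Rn7sk end: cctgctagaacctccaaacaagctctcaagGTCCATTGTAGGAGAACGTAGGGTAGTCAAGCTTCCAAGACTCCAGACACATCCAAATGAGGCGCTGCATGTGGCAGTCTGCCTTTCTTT
Gm24447 end: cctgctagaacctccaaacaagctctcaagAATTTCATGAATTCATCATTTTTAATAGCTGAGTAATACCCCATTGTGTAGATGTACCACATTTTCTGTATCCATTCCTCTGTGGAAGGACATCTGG

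Rpph1 (chr14:50807449-50807767, minus strand, 319 bases) and Rmrp (chr4:43492788-43493058, minus strand, 271 bases) are both typed as ribozymes. The longest run of bases they shared was 9, and no other row of a small RNA had a copy of either at 90% identity over 60 bases. For Rn7s1, 12 rows other than the members held such a copy, and their reads summed to between 0.148% and 0.223% of a library. Among them, AC157822.1 and AC099934.1 (21499 and 4954 reads on average) lie on the 3′ end of Rn7s2 and Rn7s1 themselves. They are thus not copies elsewhere. AC156953.1 lies within Rn7s6, and AC122546.1 overlaps Gm24105, so this sum may hold some reads more than once. For Rn7sk, there were 11 such rows, with 0.0886% to 0.689%, nearly all of it on Gm24447. How the authors treated reads that match several places is not given in the sources used here, so the division of reads among copies is uncertain.

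The members covered a wide range of levels. Per length, in RPKM (reads per kilobase of exon scaled to the reads counted in the library), the order was AC157822.2, AC099934.2, Rn7s2, Rn7s1, Rn7sk, Rpph1 and Rmrp in all 9 mice. By mean share of the reads, Rn7s2 was rank 1 of all rows, AC157822.2 rank 2, Rn7s1 rank 4 and AC099934.2 rank 5, with the nuclear RNA Malat1 between them at rank 3. Rn7sk was at rank 32, Rpph1 at 50 and Rmrp at 2150. Neighbours in the order stayed apart in each mouse. The smallest RPKM ratio of neighbours in any mouse was 1.19, for Rn7sk over Rpph1, a ratio that ran up to 1.57. Rpph1 was 10.4 to 13.6 times Rmrp. The 95% Wilson interval of a single mouse's share reached at most 0.438% of the share on either side for a 7SL row, 1.02% for Rn7sk, 1.25% for Rpph1 and 4.62% for Rmrp. These intervals cover counting error only.

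7SL RNA took less of the library in the ICH mice than in the sham mice. Reads on a 70-base row were at most those on its 300-base host in every mouse, as they would be if a read on both was counted for both. Only the 2 long rows were therefore summed, to leave out that repeat. Whether a read that matches both long rows was counted for each is not known. Rn7s1 and Rn7s2 together held 4.32%, 4.12% and 4.65% of the reads in the sham mice. Their share was 3.26%, 3.29% and 3.28% in ICH, and 3.49%, 4.68% and 3.42% in feb. Every ICH mouse was thus below every sham mouse, and within the feb group replicate 2 stood with the sham mice while the others stood between the ICH and the sham groups. The means were 4.37% ± 0.267 in sham, 3.28% ± 0.0157 in ICH and 3.86% ± 0.707 in feb (SD, n = 3). The ICH mean was 0.751 times the sham mean, and the feb mean was 1.178 times the ICH mean, or 1.054 times without feb replicate 2.

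**Figure D1:**
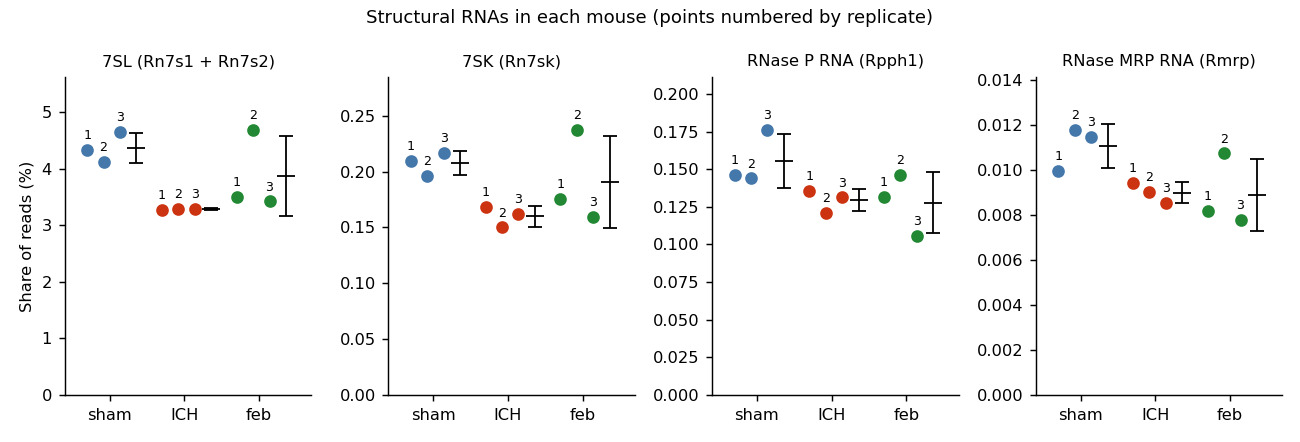
Share of reads (%) of 7SL, 7SK, RNase P RNA and RNase MRP RNA in each mouse (points, numbered by replicate), with the group mean and SD (bar and whiskers, n = 3), on axes that start at 0. The 3 ICH mice lie below the 3 sham mice in each panel, and feb replicate 2 is the highest of the feb mice in each.

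The identical genes did not carry the same number of reads. Rn7s2 had 1.86 to 2.68 times the reads of Rn7s1, and the ratio was lowest in feb replicate 2. Rn7s1 was at 47423, 41051 and 50534 RPKM in sham, 32345, 29874 and 32214 in ICH, and 33762, 54493 and 34019 in feb. Its ICH mean was 0.679 times the sham mean. Rn7s2 was at 96735, 96306 and 104471 RPKM in sham, 76438, 79947 and 77192 in ICH, and 82687, 101524 and 79991 in feb, with an ICH mean of 0.785 times the sham mean. The sham and ICH groups did not overlap for either gene. Since the sequences are the same, a read that lies within them cannot be given to one gene or the other by its bases.

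Most 7SL reads were counted on the window of 70 bases that AC099934.2 and AC157822.2 cover, and the sham and ICH groups differed in how many were not. A read can be longer than 70 bases, so one counted on such a row may only overlap it. Below, reads counted on a 70-base row are called inside the window, and the other reads of its host outside it. AC157822.2 held 91.7% to 94.3% of the reads of its host Rn7s2. AC099934.2 held 60.05%, 75.8% and 62.7% of the reads of Rn7s1 in sham, 86.2%, 86.8% and 84.0% in ICH, and 82.9%, 57.9% and 84.3% in feb. The window thus held a smaller part of Rn7s1 in all 3 sham mice and in feb replicate 2 than in the other 5 mice. The rows AC099934.1 and AC157822.1, which lie on the 3′ end of the same genes, held 1.38% to 1.76% and 2.62% to 3.65% of the reads of their hosts.

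Outside the window, Rn7s1 held 0.568%, 0.298% and 0.565% of the library in sham, 0.134%, 0.119% and 0.154% in ICH, and 0.173%, 0.689% and 0.160% in feb. The ICH mean was 0.284 times the sham mean. For Rn7s2, the reads outside the window were 0.237%, 0.191% and 0.261% of the library in sham, 0.134%, 0.138% and 0.136% in ICH, and 0.156%, 0.251% and 0.141% in feb. Here the ICH mean was 0.591 times the sham mean, and in both genes no ICH mouse reached a sham mouse. Inside the window the groups were closer: the ICH mean was 0.886 times the sham mean for AC099934.2 and 0.801 times for AC157822.2. The part of the library outside the window made up 76.6% of the difference between sham and ICH for Rn7s1 and 14.7% for Rn7s2, or 40.1% of that of both genes.

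**Figure D2:**
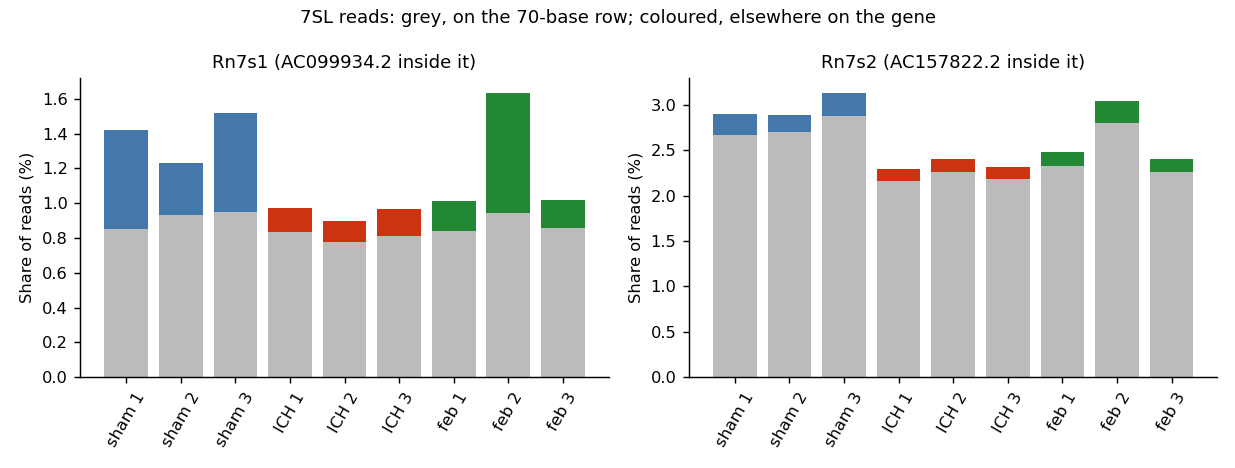
Share of reads (%) on Rn7s1 (left) and Rn7s2 (right) in each mouse, as stacked bars that start at 0: grey, reads counted on the 70-base row inside the gene; colour, the other reads on the 300-base row (blue sham, red ICH, green feb). On Rn7s1 the coloured part is 0.298% or more of the library in the sham mice and feb replicate 2 and 0.173% or less in the other mice.

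The 70-base rows showed the same order of groups. AC099934.2 was at 122038, 133399 and 135900 RPKM in sham, 119493, 111074 and 116017 in ICH, and 120002, 135134 and 122862 in feb. AC157822.2 was at 380673, 385430 and 410377 RPKM in sham, 308480, 322951 and 311330 in ICH, and 332053, 399284 and 322671 in feb. For both, the highest ICH mouse was below the lowest sham mouse. With the 4 rows summed, as deposited, 7SL took 8.02% of the reads in sham, 6.29% in ICH and 7.21% in feb, or 6.60% in feb without replicate 2, but reads in a window are then counted for each of the rows that cover it.

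7SK RNA was likewise lower in the ICH mice. Rn7sk was at 6331, 5924 and 6552 RPKM in sham, 5089, 4532 and 4899 in ICH, and 5300, 7166 and 4818 in feb. All 3 ICH mice were below all 3 sham mice, and feb replicate 2 was the highest of the 9 mice, whereas feb replicate 3 was within the ICH range. The group means were 6269 ± 319, 4840 ± 283 and 5761 ± 1240 RPKM (SD, n = 3) for sham, ICH and feb. The ICH mean was 0.772 times the sham mean, and the feb mean was 1.19 times the ICH mean with all feb mice and 1.05 times without replicate 2.

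The copy Gm24447 varied far more than Rn7sk. It is named after its values were seen. It held 0.464%, 0.197% and 0.337% of the reads in sham, 0.110%, 0.0858% and 0.103% in ICH, and 0.128%, 0.682% and 0.114% in feb, while Rn7sk stayed between 0.150% and 0.237%. Gm24447 had 2.21, 1.003 and 1.56 times the reads of Rn7sk for sham, 0.652, 0.572 and 0.633 times for ICH, and 0.731, 2.88 and 0.712 times for feb. It thus held at least as many reads as Rn7sk in the sham mice and in feb replicate 2, and fewer in the other 5. The mean of Gm24447 in ICH was 0.299 times that in sham. Rn7sk and Gm24447 together took 0.540% ± 0.141 of the library in sham, 0.260% ± 0.0217 in ICH and 0.499% ± 0.365 in feb (SD, n = 3). The feb mean of this sum without replicate 2 was 1.11 times the ICH mean. Whether the reads on Gm24447 come from 7SK RNA was not tested.

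**Figure D3:**
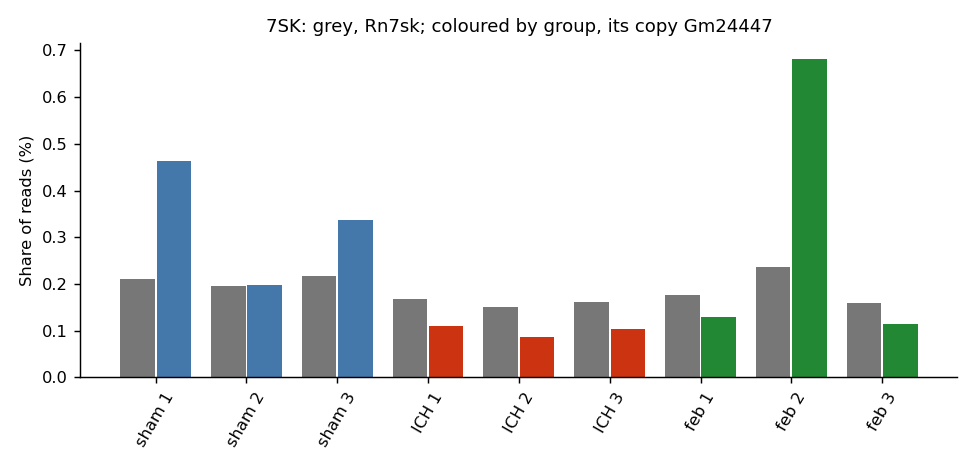
Share of reads (%) on Rn7sk (grey) and on its copy Gm24447 (blue sham, red ICH, green feb) in each mouse, as bars that start at 0. Rn7sk lies between 0.150% and 0.237% in all mice, whereas Gm24447 reaches 0.682% in feb replicate 2 and is at most 0.110% in the ICH mice.

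The RNase P and RNase MRP RNAs were also lower in every ICH mouse than in every sham mouse. Rpph1 was at 4581, 4510 and 5517 RPKM in sham, 4253, 3798 and 4114 in ICH, and 4117, 4576 and 3318 in feb. Rmrp was at 367, 434 and 424 RPKM in sham, 348, 333 and 315 in ICH, and 302, 396 and 287 in feb. The ICH means were 0.833 times (Rpph1) and 0.813 times (Rmrp) the sham means. Unlike for 7SL and 7SK, the feb means were not above the ICH means: they were 0.987 times for Rpph1 and 0.990 times for Rmrp, and 0.917 and 0.888 times without feb replicate 2, and feb replicate 3 was the lowest of the 9 mice for both.

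The row of Rmrp lies partly on that of Ccdc107, a protein-coding gene on the other strand. Ccdc107 held between 1832 and 3215 reads and Rmrp between 1797 and 3228, and in each mouse the counts differed by no more than 53 reads. Whether strand was used in the counting is not given in the sources used here, and reads of these rows cannot be told apart. Ccdc107 is therefore not counted as a separate measurement.

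Counted over the members, all 7 were lower in every ICH mouse than in every sham mouse. Of the 29025 genes tested, 6.22% were so. In feb against ICH, 3 of 7 were higher in every feb mouse (Rn7s1, Rn7s2 and AC099934.2), as were 7.04% of all genes, and 0 were lower in every one, as 10.1% of all genes were. In feb against sham, the groups overlapped for all 7, while all 7 feb means were below the sham means, and 4.9% of all genes were lower in every feb mouse. Since the members were picked by these shares, and since 4 of them share their reads, nothing is read from the counts. The contrasts share groups of mice and are not independent. The median log2 difference of the members was -0.32 in ICH against sham (all genes 0.08), 0.15 in feb against ICH (all genes -0.01) and -0.18 in feb against sham (all genes 0.05). Without feb replicate 2, the last 2 medians of the members were 0.06 and -0.31. No member differed by 2 fold between any groups.

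Other structural RNAs from a list that did not use the members' rule were then tested. That list was still chosen with earlier results of these data known, and its rows come from the same libraries. The test was limma on log2(RPKM + 0.1), fitted over all 29025 genes, and DEGs were defined, after the study's own criteria, as genes that changed by over 2 fold at an unadjusted p-value under 0.05. Of 32 names, 26 had a row that was tested, of which 1, Lars2, is a protein-coding gene that the list holds among the rows for rRNA reads. In ICH against sham, 6 of the 26 were DEGs, where 2.53% of all genes were, with 5 lower (Rny1, Rny3, Rnu3b4, Rnu3b3 and Rnu1b1, 1.07% of all genes) and 1 higher (Rnu73b, with 2.33 reads per mouse on average, 1.46% of all genes). Rnu1b1 was low as well, with fewer than 10 reads per mouse on average. In feb against ICH, 2 of 26 were DEGs, both higher (Rny3 and Rnu3b4), where 2.43% of all genes were DEGs and 1.38% were higher. In feb against sham, 1 was, Rnu7, at 5 reads or fewer in each mouse, against 2.2% of all genes. None of the 26 had a Benjamini-Hochberg adjusted p-value under 0.05 in limma, which 0.0241%, 0.00689% and 0.00345% of all genes had in the 3 comparisons.

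The Y RNAs Rny1 and Rny3 are short RNA polymerase III transcripts that bind the Ro protein. Rny3 had 598, 313 and 663 reads in sham, 131, 125 and 149 in ICH, and 215, 760 and 158 in feb. The ICH mice were all below the sham mice, and the feb mice all above the ICH mice. Its log2 fold change on log2(RPKM + 0.1) was -1.77 ± 0.51 (SE; adjusted p = 0.345, limma) in ICH against sham and 1.176 ± 0.51 (adjusted p = 0.447, limma) in feb against ICH. Rny1 had 364, 234 and 386 reads in sham, 153, 122 and 135 in ICH, and 196, 447 and 121 in feb, and its log2 fold change in ICH against sham was -1.11 ± 0.39 (adjusted p = 0.366, limma). The ICH call of Rny1 was lost without sham replicate 1, without sham replicate 3 or without ICH replicate 2. Its log2 fold change ran from -1.29 to -0.98 over all alternatives.

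The U3 RNAs guide the processing of precursor rRNA in the nucleolus, and the genes of this family are near copies, so reads may be split among them. Rnu3b4 had 2224, 853 and 1966 reads in sham, 252, 282 and 264 in ICH, and 458, 2481 and 365 in feb. Again feb replicate 2 stood with the sham mice, and the other feb mice were just above the ICH mice. Its log2 fold change was -2.42 ± 0.64 (adjusted p = 0.334, limma) in ICH against sham and 1.53 ± 0.64 (adjusted p = 0.439, limma) in feb against ICH. Rnu3b3 had a log2 fold change of -1.28 ± 0.51 (adjusted p = 0.388, limma) in ICH against sham. That call was lost without sham replicate 1 or 3 and without any of the ICH mice. The feb against ICH calls were lost when feb replicate 2 was left out, with log2 fold changes of 0.51 for Rny3 and 0.67 for Rnu3b4, and when sham replicate 1 or 3 or any ICH mouse was left out.

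Of the 18 RNAs of this list with at least 10 reads on average, Lars2 left out, 17 had a lower mean RPKM in ICH than in sham, as 38.6% of all genes tested did, and in 10 no ICH mouse reached a sham mouse, as in 6.22% of all genes. The exception was the U1 RNA Rnu1a1, with a log2 fold change of 0.21 (adjusted p = 0.541, limma). Feb replicate 2 was above both other feb mice for 14 of the 18, and above all ICH mice for 16. Rows of the same family, such as the U3 RNAs, may share reads, and all 18 come from the same libraries. The counts are therefore not counts of separate results. The minor spliceosome RNAs Rnu12 and Rnu11 had log2 fold changes of -0.62 (adjusted p = 0.347) and -0.70 (adjusted p = 0.349, limma) in ICH against sham. The mitochondrial rRNAs mt-Rnr1 and mt-Rnr2 had -0.77 (adjusted p = 0.334) and -0.59 (adjusted p = 0.396, limma), and 3 rows that gather nuclear rRNA reads had -0.58 (Gm42418, adjusted p = 0.388), -0.71 (AY036118, adjusted p = 0.390) and -0.05 (Gm26917, adjusted p = 0.927). For Gm42418 and AY036118 the feb means were close to the ICH means, at log2 differences of -0.02 and 0.02.

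**Figure D4:**
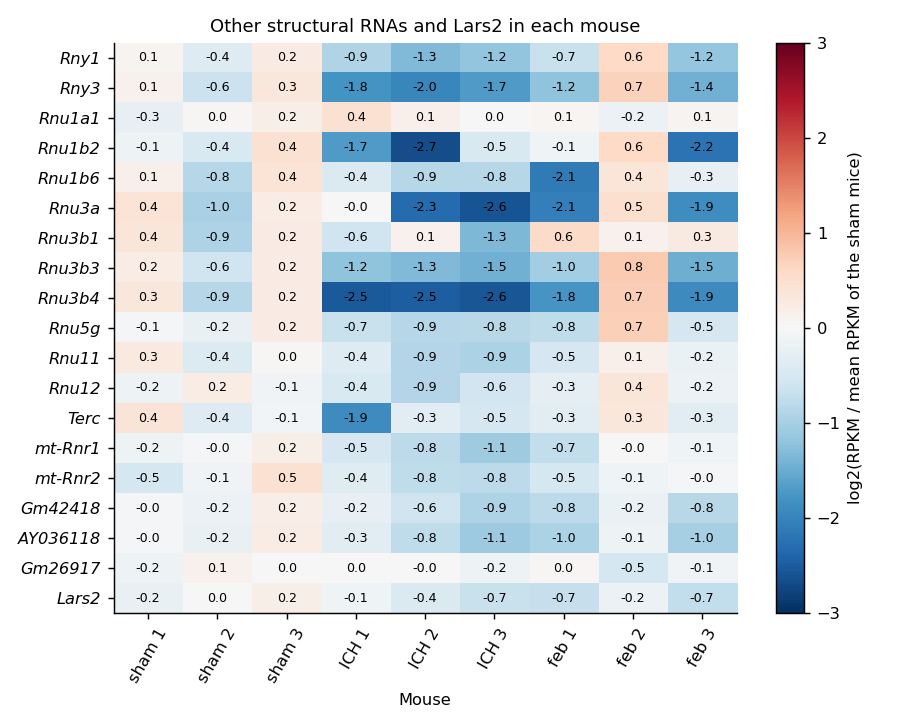
log2 of the RPKM of each mouse over the mean RPKM of the 3 sham mice, for the 18 other structural RNAs with at least 10 reads on average and for the protein-coding gene Lars2 (rows; red higher, blue lower; the number in a cell is its value). Rny1, Rny3, Rnu3b3 and Rnu3b4 are low in the ICH mice and in feb replicates 1 and 3, and not in feb replicate 2.

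No protein partner of these RNAs met the DEG criteria. Of 73 names in 6 lists, 71 had a row and were tested. By limma, 0 of 71 were DEGs in each of the 3 comparisons, and 7, 8 and 5 had an unadjusted p-value under 0.05 in ICH against sham, feb against ICH and feb against sham, that is 4 higher and 3 lower, 4 and 4, and 4 and 1. Of all genes, 12.3%, 11.1% and 8.54% did. With limma-voom on the recovered reads, 0 were DEGs, and 8, 6 and 5 passed the unadjusted threshold. The median log2 fold changes of the 71 were 0.03, -0.02 and 0.03, beside 0.08, -0.01 and 0.05 for all genes.

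Among the SRP proteins, Srp14, which binds the end of 7SL that pauses translation, was the partner with the lowest adjusted p-value. It was at 39.5, 31.9 and 40.3 RPKM in sham, 25.8, 28.0 and 27.3 in ICH, and 33.8, 37.7 and 37.6 in feb. The ICH mice were below all other mice. The log2 fold change was -0.45 ± 0.10 (adjusted p = 0.322, limma) in ICH against sham and 0.43 ± 0.10 (adjusted p = 0.258, limma) in feb against ICH, neither of which passed the fold change criterion. Over the 9 tested genes of the SRP list, the medians were -0.02 and -0.03, so the list did not follow Srp14. Srp54a, the subunit that binds signal peptides, had the highest level of the list, with a mean of 62.3 RPKM and a log2 fold change of 0.15 (adjusted p = 0.567, limma) in ICH against sham. Of the Sec61 channel and its helpers, Sec62 and Sec63 were highest, at 47.2 and 15.7 RPKM, and differed by -0.14 and -0.09 (adjusted p = 0.582 and 0.655, limma).

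In the 7SK particle, Mepce, the enzyme that caps 7SK, was at 11.2, 10.7 and 11.3 RPKM in sham, 9.30, 8.83 and 10.01 in ICH, and 10.52, 10.97 and 10.37 in feb. The ICH mice were again lowest, by a log2 difference of -0.23 from sham (adjusted p = 0.347, limma). Hexim1, which inhibits P-TEFb within the particle, had 29.3 RPKM on average and a log2 fold change of 0.04 (adjusted p = 0.907, limma). In feb against ICH the related inhibitor Hexim2 had the largest log2 fold change of the list, 0.58 (adjusted p = 0.324, limma).

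The genes listed for proteins of RNase P or RNase MRP had a median log2 fold change of 0.14 in ICH against sham and -0.20 in feb against ICH, over 11 genes. Pop1, Rpp14 and Rpp21 had an unadjusted p-value under 0.05 in the former, with log2 fold changes of 0.52, 0.36 and 0.40 (adjusted p = 0.366, 0.347 and 0.347, limma), the opposite sign to Rpph1 and Rmrp. Pop5, the highest of the list at 13.2 RPKM, was at 0.03 (adjusted p = 0.916, limma). The 13 genes of RNA polymerase III had a median of 0.01 in ICH against sham, with Polr3d highest at 18.7 RPKM and a log2 fold change of -0.04 (adjusted p = 0.892, limma). The 19 genes of RNA polymerase III factors had a median of 0.03. Ssb, the La protein that binds the U-rich ends of new RNA polymerase III transcripts, had 80.6 RPKM and -0.10 (adjusted p = 0.712, limma), and Snapc3, a subunit of the complex that binds upstream promoters of such genes, had 28.4 RPKM and 0.03 (adjusted p = 0.898, limma).

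**Figure D5:**
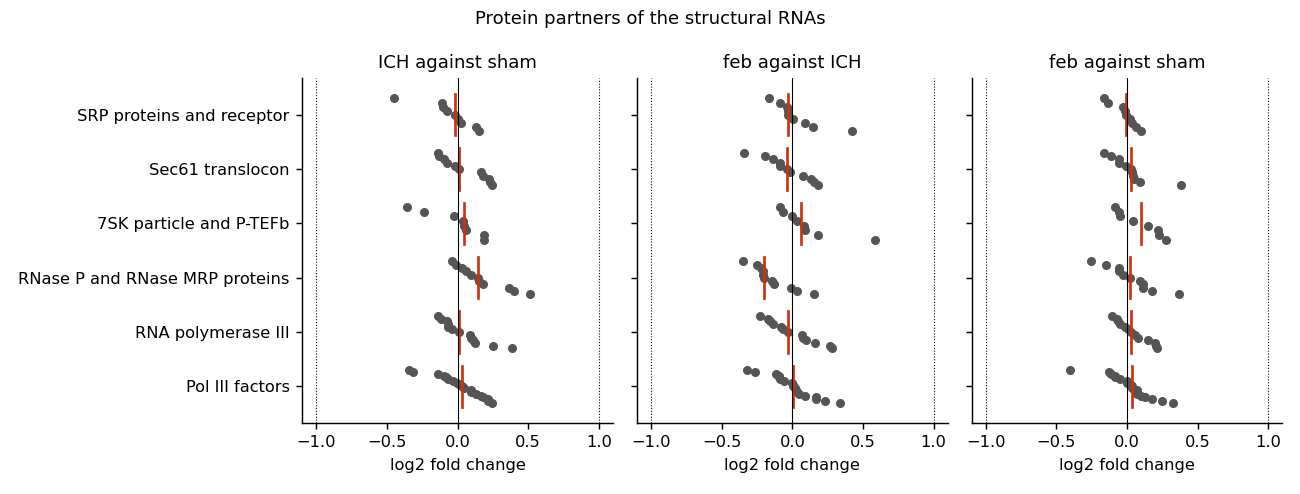
log2 fold changes of the 71 protein partners (points) in 6 lists, for each comparison, with the median of each list as a red bar; dotted lines mark a fold change of 2. All points lie inside the dotted lines, and the medians lie between -0.20 and 0.14.

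Of the genes next to the members, none was a DEG in ICH against sham or in feb against ICH by limma, and only Parp2 in the former had an unadjusted p-value under 0.05. Rps29, a ribosomal protein gene that starts near Rn7s1 on the other strand, had a log2 fold change of -0.13 (adjusted p = 0.586, limma) in ICH against sham, and Nemf, next to Rn7s2, had 0.01 (adjusted p = 0.979). Ick and C920006O11Rik, on either side of Rn7sk, had -0.15 and 0.43 (adjusted p = 0.778 and 0.654, limma), the latter at 0.470 RPKM on average. Parp2, which starts near Rpph1 on the other strand, had 0.33 (adjusted p = 0.383, limma), the opposite sign to Rpph1. Gm9887, next to Rn7s2, had -0.06 and Arhgef39, next to Rmrp, had 0.54 (adjusted p = 0.898 and 0.409, limma), and the neighbours Lrr1, Sit1 and Ccnb1ip1 did not pass the filter on low values.

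Across the 9 mice, several rows followed the members closely. Pearson correlations on log2(RPKM + 0.1) with the summed 7SL rows, over 12624 rows with at least 100 reads in every mouse, were highest for Rn7s6 (0.981), AC156953.1 (0.980), Rny3 (0.974), Rnu3b4 (0.972) and Gm26461 (0.966). Those with Rn7sk were highest for Rny1 (0.994), Gm26461 (0.979), Rny3 (0.977), AC122546.1 (0.976) and Gm24105 (0.976). Rn7s6, AC156953.1, Gm26461, AC122546.1 and Gm24105 are copies of 7SL, with 91.7% to 100% identity over the part that aligned, and may share reads with it. The shares of Rn7s1 plus Rn7s2 and of Rn7sk were correlated at 0.966, and that of Rpph1 with them at 0.780 and 0.764. These values describe 9 points that share libraries.

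Without the members, rows typed as snRNA took 0.0851% to 0.106% of the reads in sham, 0.0292% to 0.0390% in ICH, and 0.0496%, 0.117% and 0.0545% in feb. The ICH mean was 0.371 times the sham mean for snRNA, 0.463 times for misc_RNA, which includes Gm24447, 0.633 times for mitochondrial rRNA, 0.686 times for rRNA, 0.810 times for snoRNA and 0.868 times for miRNA. The miRNA total still holds rows on 7SL genes or their copies, such as AC157822.1, AC156953.1 and AC099934.1 (21499, 5602 and 4954 reads on average). It is thus not separate from 7SL. Protein-coding rows took 82.0% of the reads in sham, 84.4% in ICH and 82.5% in feb. Genes of the mitochondrial genome took between 1.31% and 1.58% in all mice. The tissue label was borne by its markers: neuronal genes such as Snap25 (217 RPKM on average) and oligodendrocyte genes such as Mbp (218 RPKM) were abundant. The 4 oligodendrocyte genes had median log2 differences of -0.36 in ICH against sham, -0.05 in feb against ICH and -0.44 in feb against sham. Those of the members were -0.32, 0.15 and -0.18. In ICH against sham, the other marker medians were 0.29 for neurons, -0.15 for astrocytes and 0.32 for microglia and macrophages. They were 0.01 for endothelium, 0.21 for choroid plexus and 0.06 for blood. The oligodendrocyte sums were 536 to 797 RPKM in sham, 429 to 759 in ICH and 438 to 693 in feb. By limma, 0 of these 4 genes were DEGs or had an unadjusted p-value under 0.05. Of the marker lists, 8 of 8 choroid plexus genes were DEGs in feb against ICH, all lower, with sums of 365 to 1035 RPKM in sham, 458 to 967 in ICH and 30.6 to 88.4 in feb, and 4 of 6 tested blood genes were lower as well, with sums of 33.2 to 41.6, 26.8 to 124 and 17.3 to 22.2 RPKM, S100a8 being near 0. Of 5 neuronal genes, Slc17a7 was a DEG, higher in ICH than in sham at a log2 fold change of 1.54 (adjusted p = 0.277, limma). The part of tissue composition in the differences of the structural RNAs was not tested.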

How the data were processed

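Total RNA of 9 mouse brains, 3 per group, was depleted of rRNA and made into stranded libraries with UMIs by the authors. Per the study's methods and the submitters' processing notes, reads were trimmed (Trimmomatic 0.36), merged into consensus reads by UMI, aligned to GRCm38 and counted on exons with featureCounts (Subread 1.5.1), and DEGs were tested with edgeR 3.12.1. The authors deposited RPKM values, 1 column per mouse. The annotation release and the settings for strand, overlapping genes and multiple matches are not given in the sources used here. RPKM values were whole multiples of 1 read within 0.01 in all rows checked, so reads and shares of reads were recovered from them. The check left out the rows with the highest counts, and of the members it covered only Rmrp.

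Tests used limma 3.58.1 (R 4.3.3; lmFit, eBayes with trend) on log2(RPKM + 0.1) over the 29025 rows with at least 0.1 RPKM in at least 3 of 9 mice, with all 9 mice in 1 fit. The Benjamini-Hochberg adjustment ran over these rows. Nothing states that mice of a group came from separate cages or days, so p-values measure the spread between these mice. The test was tried on simulated data. Tables were made with Python 3.11.15, pandas 2.3.3 and numpy 2.4.6. Sequences and gene types came from GENCODE M21 (GRCm38), which matched 38411 of 38621 rows by position or, where that failed, by name. Copies were rows with at least 90% identity over at least 60 bases.

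The members, the gene lists and the tests were chosen with earlier results of these data known. Genes named are the 7 members, in each partner list all DEGs and the 2 with the highest mean RPKM, other structural RNAs with at least 10 reads on average, the nearest genes of each member, and for 7SL and 7SK the 5 rows most alike over the mice. Gm24447, Mepce, Hexim2, Pop1, Rpp21 and the low RNAs among the DEGs were named after their values were seen. The results of 2 genes that the rule names, and 1 sequence, are not reported here. Marker lists of neurons, astrocytes, oligodendrocytes, microglia, endothelium, choroid plexus and blood were summed per mouse. Sums ran from 213 to 276 RPKM for astrocytes, 20.3 to 39.8 for microglia and macrophages, and 18.2 to 30.9 for endothelium, with 0 DEGs in these lists. Bc1, Rn4.5s, Rn18s, Rn45s, Srp54c and Srpra were not analysed here. The alternatives were pseudocounts of 1 and 0.01, other filters, 3 other scalings, 2-group fits, no trend, a replicate block, voom, other ways to sum 7SL, and each mouse left out. The filter of 10 reads, the reads outside the 70-base rows and the sum with Gm24447 were chosen after seeing the data.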

Additional observations from a re-analysis of the deposited data

How the results depend on the processing

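The partner count of 0 DEGs held in all 3 comparisons under every alternative, and 1 of 71 partners (Srp14) passed an adjusted p-value of 0.05 in limma, in ICH against sham without sham replicate 2 (0.0460). The counts over all genes were 735, 706 and 639 in ICH against sham, feb against ICH and feb against sham. They were 158, 128 and 91 with a pseudocount of 1, 346, 287 and 263 with an RPKM of at least 1, and 371, 321 and 281 with at least 10 reads in at least 3 mice, all of which weigh low genes less. With each mouse left out in turn they ran from 606 to 1288, from 607 to 920 and from 450 to 1136. Without sham replicate 2 the count was 1288 in ICH against sham and 1136 in feb against sham, and without feb replicate 2 it was 1016 in feb against sham. The cause was not tested. Setting equal medians moved the median log2 difference of all genes from 0.08 to -0.02 in ICH against sham and from 0.05 to -0.05 in feb against sham, and the split of DEGs in ICH against sham from 423 higher and 312 lower to 327 and 421. The members kept their directions under equal medians and with the 7SL rows out of the total. Quantile normalization sets the 4 7SL rows, the top rows of every mouse, to the same values by construction, and left Rn7sk at -0.22, Rpph1 at -0.05 and Rmrp at -0.18 in ICH against sham.

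The difference in 7SL share between ICH and sham was -1.74 percentage points with the 4 rows summed, -1.09 with Rn7s1 and Rn7s2 only (the longest of overlapping rows), -0.435 for reads outside the 70-base rows, and -2.03 as a share of the reads on rows other than the members. With each mouse left out it ran from -1.87 to -1.51. In feb against ICH it was 0.918, and 0.310 to 1.25 with each mouse left out, the lowest without feb replicate 2. In feb against sham it was -0.817, and -1.43 to -0.484. For Rn7sk the differences were -0.0473, 0.0305 and -0.0168 percentage points, and with Gm24447 added the first 2 were -0.281 and 0.239. With each mouse left out they ran from -0.0530 to -0.0422, from 0.00724 to 0.0461 and from -0.0401 to -0.00119. The feb against ICH difference of Rn7sk was 0.00724 without feb replicate 2.

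Mice of different groups carry the same replicate numbers, but no source says that a number marks a litter or day. Same-numbered mice deviated from their group means with correlations of -0.127 to 0.0194 over genes, and differently numbered mice of different groups with -0.121 to 0.166. These values show no sign that the numbers pair the mice, but with so few mice they cannot exclude it. With the number as a replicate block the counts over all genes were 717, 684 and 615, and 0 genes passed an adjusted p-value of 0.05 in limma (2771, 2660 and 1864 at an unadjusted p under 0.05). Rny3 and Rnu3b4 were DEGs in ICH against sham under all 21 alternatives, with log2 fold changes of -2.06 to -1.57 and -2.81 to -2.20 and adjusted p-values in limma from 0.0616 to 0.731 and from 0.0425 to 0.731. In feb against ICH they were DEGs under 9 and 12 of 21; both calls were lost with the block, with 2-group fits and without the trend, and that of Rny3 also with no filter, equal medians and voom. The block also ended the call of Rnu3b3 in ICH against sham. Depth limits the RNAs with fewer than 10 reads on average.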
